A study of Mus musculus with 20 samples.

Results

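Nanog, Gdf3, Dppa3 and Slc2a3 are neighbours on mouse chromosome 6, and their chromatin was followed through the reprogramming of fibroblasts to pluripotency. These 4 genes, of 21938 protein-coding genes in GENCODE M21, were taken as neighbours on the chromosome, with earlier results of these data known. In the mm10 build (GRCm38), Gdf3 (ENSMUSG00000030117.5) runs from 122605403 to 122610087 on the minus strand and Dppa3 (ENSMUSG00000046323.8) from 122626410 to 122630272 on the plus strand. Nanog (ENSMUSG00000012396.12) follows from 122707489 to 122714633 on the plus strand, and Slc2a3 (ENSMUSG00000003153.10) closes the cluster from 122727809 to 122742745 on the minus strand. The cluster spans 137 kb, and with 50 kb added on each side the region examined covers 237 kb, from 122555403 to 122792745.

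The samples were mouse embryonic fibroblasts (MEFs) and the cells made from them by virus-borne Oct4, Sox2, Klf4 and c-Myc, together called OSKM, in medium with vitamin C. Wild-type (WT, Jmjd3+/+) samples carried the strain label C57BL/6J-OG2 and knockout (KO, Jmjd3-/-) samples the label C57Bl6J, so strain and genotype cannot be told apart. Chromatin immunoprecipitation followed by sequencing (ChIP-seq) for H3K27me3 gave 10 peak lists, from untreated WT and KO MEFs and from OSKM cells of both genotypes at day 5 and day 10, which also received either the FLAG control vector or exogenous JMJD3, so that KO cells with JMJD3 again carried the enzyme. ChIP-seq for KLF4 gave 2 lists, from day 5 WT OSKM cells with FLAG or JMJD3, and ChIP-seq against the FLAG tag of FLAG-JMJD3 gave 2 lists, from day 5 WT cells with OSKM or with OSlowKM, in which less KLF4 virus was given. Every group was 1 library of a mixed cell population, so no difference below has a replicate check or a p-value, and a mark lost from some of the cells cannot be told apart from a weaker mark in all of them.

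H3K27me3 is a histone mark that Polycomb complexes place on silent developmental genes, and JMJD3, the product of Kdm6b, is an enzyme that removes it. NANOG is a homeobox transcription factor of the naive pluripotent state and is silent in fibroblasts. GDF3 is a secreted ligand of the TGF-beta superfamily, DPPA3 (also called Stella) is a maternal and germ-cell factor that shields DNA methylation in the early embryo, and SLC2A3 (GLUT3) is a glucose transporter. The stretch between Dppa3 and Nanog is known to hold distal enhancers of Nanog in embryonic stem cells.

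The sequences on which the binding results below turn are the stretch directly before the Nanog start and the windows centred on 3 binding positions, all from GRCm38.p6 on the plus strand and written 5′ to 3′. Capitals mark matches to fixed strings searched on both strands, namely KLF (GGGNGTGG), SOX (ACAATGG), OCT (ATGCAAAT), AP-1 (TGANTCA) and an OCT-SOX composite (TTTGCAT, any base, ACAATG).
Nanog, 250 bases before the first start site, chr6:122707239-122707488: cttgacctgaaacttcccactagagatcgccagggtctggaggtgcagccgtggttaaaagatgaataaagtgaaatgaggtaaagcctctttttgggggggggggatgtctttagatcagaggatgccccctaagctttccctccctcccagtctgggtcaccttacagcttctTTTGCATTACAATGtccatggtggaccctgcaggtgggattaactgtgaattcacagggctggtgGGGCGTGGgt
KLF4 peak with JMJD3 before Nanog, chr6:122702533-122702732: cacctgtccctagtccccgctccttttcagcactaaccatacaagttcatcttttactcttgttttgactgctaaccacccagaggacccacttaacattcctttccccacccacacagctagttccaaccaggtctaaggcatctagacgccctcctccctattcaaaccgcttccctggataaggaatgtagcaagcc
JMJD3 position before Nanog, chr6:122703021-122703220: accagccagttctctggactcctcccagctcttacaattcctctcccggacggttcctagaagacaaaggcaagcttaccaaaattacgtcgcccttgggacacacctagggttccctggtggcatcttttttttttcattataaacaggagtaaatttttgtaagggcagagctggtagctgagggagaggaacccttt
KLF4 peak with FLAG in the Dppa3 intron, chr6:122627620-122627819: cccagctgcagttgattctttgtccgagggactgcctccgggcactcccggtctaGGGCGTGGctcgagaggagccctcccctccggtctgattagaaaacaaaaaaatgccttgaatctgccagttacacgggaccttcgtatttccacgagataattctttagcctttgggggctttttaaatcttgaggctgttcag

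H3K27me3 at the start sites was examined first. Each H3K27me3 peak was an interval of 1000 bp with a peak caller score of unstated scale, and a gene was called where a peak lay within 5 kb of a start site. Of the 40 combinations of gene and list, 5 (12.5%) were called, 2 for Nanog and 3 for Slc2a3, a share near the 12.2% of all such combinations over the protein-coding genes. Gdf3 and Dppa3 were called in 0 of 10 lists. The nearest peak to a start site lay 0 to 626 bp away in the called combinations and at least 34.2 kb away in the others. No member was called in any of the 4 lists with exogenous JMJD3 or in any of the 4 lists from day 10, in which 8.26% to 13.0% of all genes were called.

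**Figure D1:**
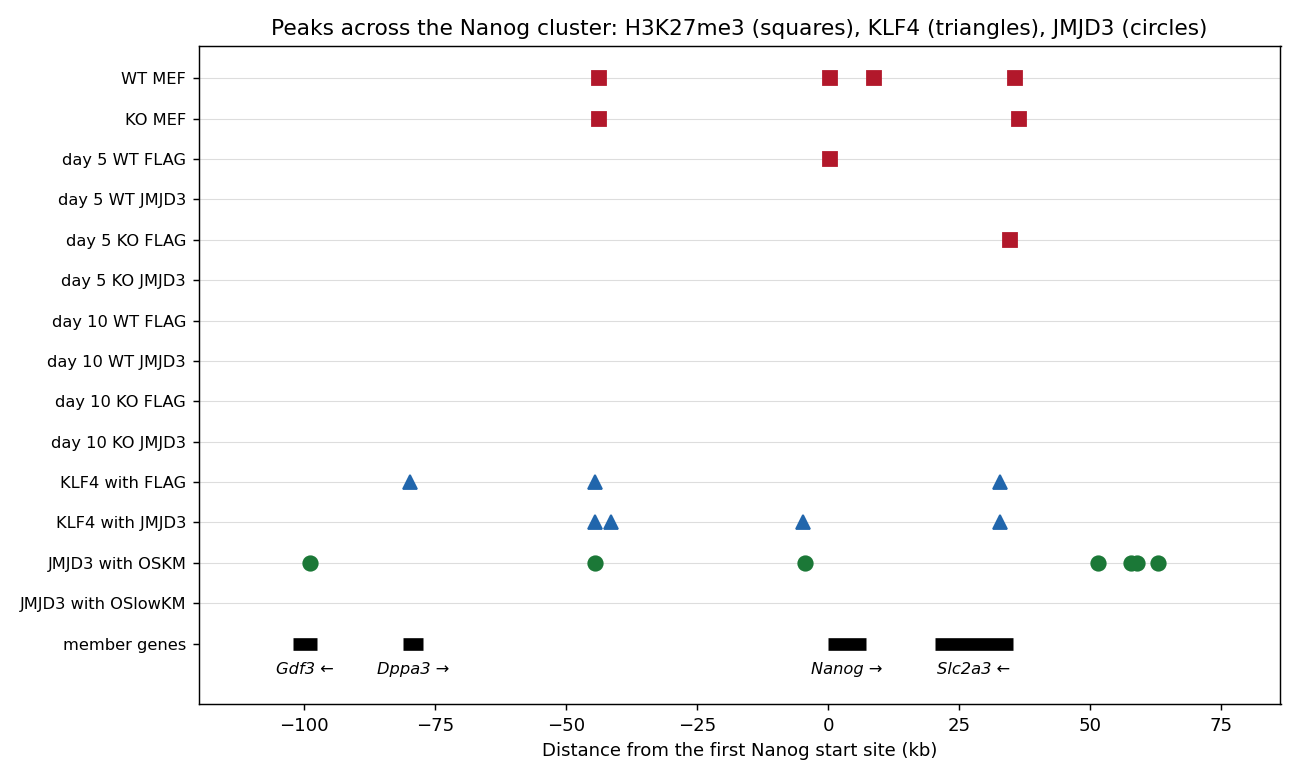
Positions of the peaks in the 14 lists from before Gdf3 to 50 kb past the Slc2a3 start, against the distance from the first Nanog start site in kb. Squares are H3K27me3 peak centres, triangles KLF4 peak centres, circles JMJD3 positions and black bars the 4 genes with their direction. Only the WT MEF list holds more than 2 H3K27me3 peaks, and the list of JMJD3 with OSlowKM is empty here.

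Nanog carried a peak in WT MEFs at chr6:122707269-122708268, with a score of 11.66 and rank 3536 of 6954 in its list. Its centre lay in an exon of Nanog, and the interval took in all 3 annotated start sites of the gene. In day 5 WT cells with FLAG the peak was at chr6:122707359-122708358 with a score of 7.61 and rank 5311 of 6428, and it shared 910 bp with the MEF peak. The 2 intervals thus marked nearly the same stretch. The peak stood 50.8% of the way down the MEF list and 82.6% of the way down the day 5 list, and ranks in separate lists do not measure a change of the mark. In KO cells Nanog was called in none of the 5 lists. The nearest KO peak lay 35.8 kb away in MEFs and 34.2 kb away at day 5 with FLAG. With exogenous JMJD3 the nearest peak was 214 to 223 kb away in all 4 lists.

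Slc2a3 carried a peak over its start in WT MEFs, at chr6:122742619-122743618, with a score of 11.74 and rank 3511 of 6954, close to the Nanog peak in the same ranking. The KO MEF peak, at chr6:122743371-122744370 with a score of 7.92 and rank 3132 of 4113, lay further upstream, with 626 bp between its edge and the start site. In day 5 KO cells with FLAG the peak was at chr6:122741757-122742756, with a score of 9.08, rank 3873 of 5643 and its centre in the intron behind the start. The 3 Slc2a3 peaks thus surrounded the start without coinciding. The WT MEF interval shared 248 bp with the KO MEF interval and 138 bp with the day 5 KO interval, and the 2 KO intervals did not overlap. All 5 intervals at the members scored below the median of their own list. When only the better-scoring 50% of each list, or only scores of at least 20, were kept, 0 of the 5 calls were left.

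Gdf3 and Dppa3 had no called peak near their starts in any of the 10 lists. The nearest peak to the Gdf3 start lay 53.2 to 126 kb away and the nearest to the Dppa3 start 36.9 to 142 kb away. Among all protein-coding genes, 77.6% (17013 genes) were likewise called in no list and 4.68% (1026 genes) in all 10. Nanog's own pattern, a call in WT MEFs and in day 5 WT cells with FLAG and nowhere else, was found at 39 genes (0.178%), a description only, since the pattern was taken from Nanog's calls after they were seen. Around their start sites (500 bp on each side) the members held fewer CpG than most genes. CpG is the dinucleotide whose dense islands tend to carry Polycomb marks. The observed over expected CpG ratio was 0.303 for Nanog, 0.366 for Gdf3, 0.443 for Dppa3 and 0.472 for Slc2a3, and 32.2% to 43.0% of all genes lay lower than each. Genes with a ratio under 0.6 were called in WT MEFs in 12.3% of cases and those with a ratio of at least 0.6 in 17.2%.

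**Figure D2:**
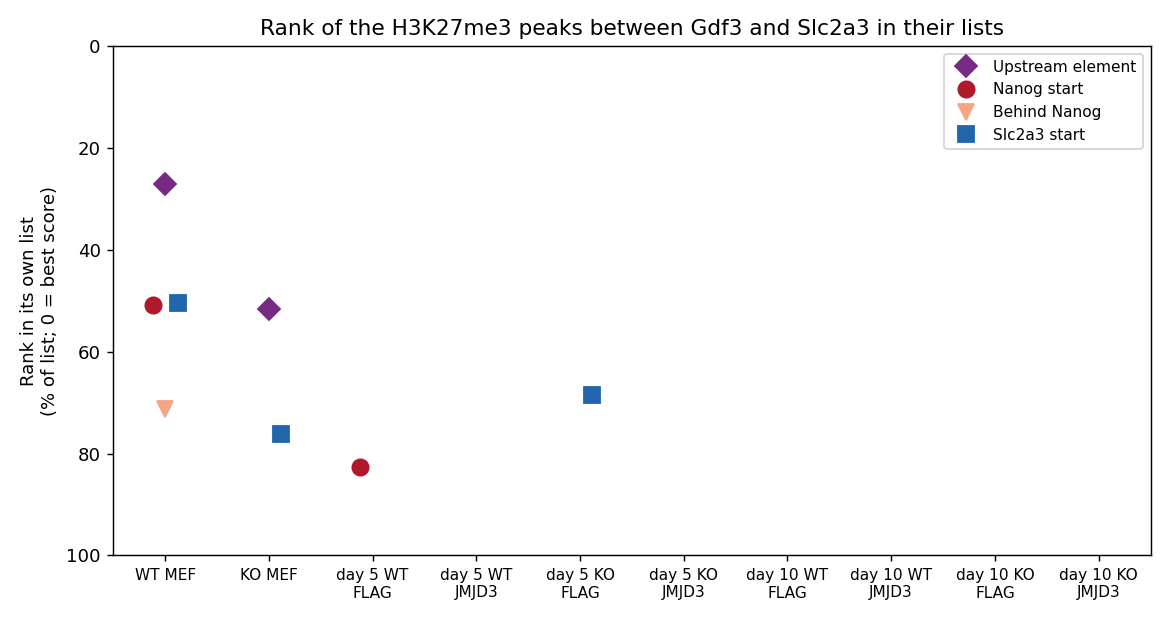
Rank of each H3K27me3 peak between Gdf3 and Slc2a3 within its own list, as percent of the list length (0 is the best score, axis reversed), for the 10 lists. Symbols mark the distal element between Dppa3 and Nanog ("Upstream element"), the starts of Nanog and Slc2a3, and the peak past the Nanog gene ("Behind Nanog"). The WT MEF peak of the upstream element ranks best at 27.1%, and the 5 peaks at member starts lie between 50.5% and 82.6%.

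The time course was then read along the lists without exogenous JMJD3. In WT cells 2 members were called in MEFs (14.6% of all genes), 1 at day 5 (14.7%) and 0 at day 10 (12.1%). Slc2a3 lost its call between MEFs and day 5, and Nanog lost its call between day 5 and day 10. Of all genes called in WT MEFs, 22.2% (95% Wilson interval 20.8 to 23.7) were not called at day 5, and of those called at day 5, 28.5% (27 to 30.1) were not called at day 10. In KO cells 1 member, Slc2a3, was called in MEFs (10.3% of all genes) and at day 5 (13.7%), and 0 at day 10 (12.8%). The corresponding shares of genes losing their call in KO cells were 15.2% (13.8 to 16.7) by day 5 and 22.6% (21.1 to 24.1) between day 5 and day 10. The losses were also read within score quartiles, the starting list split by score into 4 equal parts. For the Slc2a3 peak of WT MEFs, 64.5% (62.2 to 66.7) of its quartile had no overlapping day 5 FLAG peak. The WT MEF peak of Nanog was in the same quartile and had an overlap. From day 5 to day 10 with FLAG the share was 81.4% (79.4 to 83.2) for the WT peak of Nanog. For the KO peak of Slc2a3 it was 57.8% (55.2 to 60.4). Nanog thus kept its call at day 5 in WT cells and Slc2a3 in KO cells, the latter through a different interval.

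The comparison of vectors asked whether the mark was called less often with exogenous JMJD3. At day 5 the JMJD3 lists held 0 members in WT cells (11.0% of all genes called) and 0 in KO cells (13.0%), against Nanog in WT and Slc2a3 in KO cells with FLAG. The JMJD3 list was shorter than the FLAG list in WT cells (5064 against 6428 peaks) and longer in KO cells (6539 against 5643). With all lists reduced to the shortest length of 3045, neither member was called with FLAG. In WT cells 31.8% (30.2 to 33.4) of the genes called with FLAG had no call with JMJD3, and in KO cells 20.5% (19.1 to 21.9). At day 10 no member was called with either vector, with 8.26% of all genes called in WT and 11.7% in KO cells with JMJD3. The loss was also read among peaks of similar score. Each list was split by score into 4 quartiles, counted from the best. Nanog's day 5 peak was in the lowest-scoring quartile of the WT FLAG list, where 78.8% (76.7 to 80.7) of 1607 peaks had no overlapping peak with JMJD3. The Slc2a3 peak was in the third quartile of the KO FLAG list, where the share was 46.5% (43.9 to 49.1) of 1411 peaks. With the most upstream start of the gene record in place of the transcript start, Slc2a3 had 0 calls in any list and this loss was not present. The loss at Nanog was therefore shared with most peaks of similar score, and that at Slc2a3 with somewhat fewer than were kept.

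**Figure D3:**
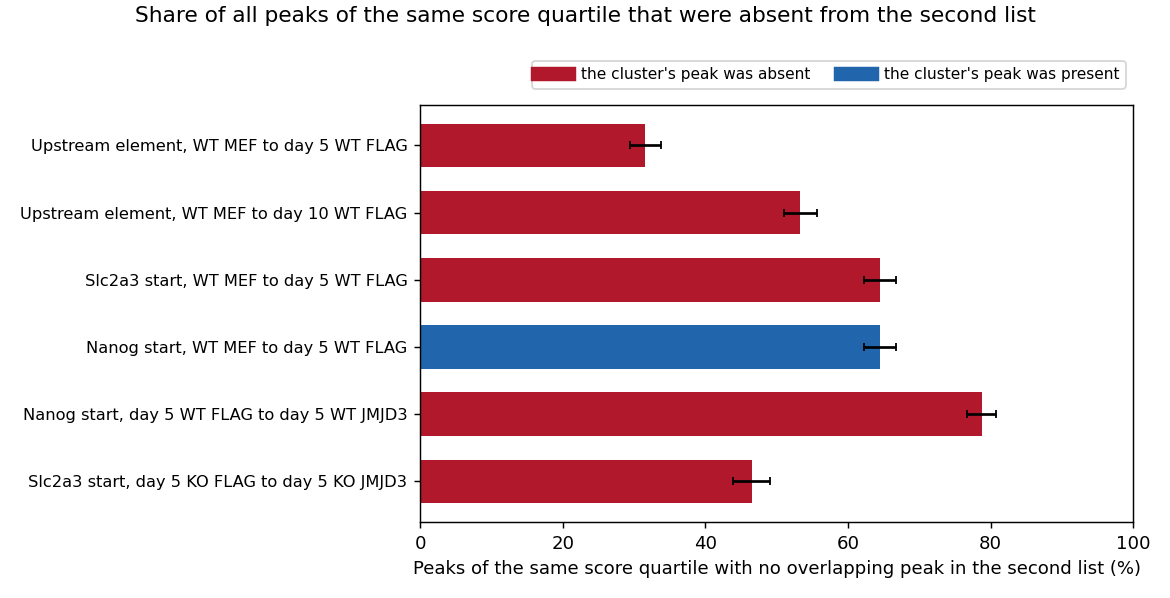
Share of all peaks in the same score quartile of the starting list (the list split by score into 4 equal parts) that had no overlapping peak in a second list, in percent, with 95% Wilson intervals as error bars. Each bar belongs to a peak of the cluster named at the left, red where that peak was itself absent from the second list and blue where it was present. Of the 6 bars drawn, which follow WT MEF peaks into the FLAG lists and day 5 FLAG peaks into the JMJD3 lists, the lowest is 31.6%, for the distal element at day 5 with FLAG, and the highest 78.8%, for the Nanog start with JMJD3.

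Between genotypes, Nanog was called in WT and not in KO cells in both states in which it was called, MEFs and day 5 with FLAG. In MEFs 35.6% (34.0 to 37.3) of the genes called in WT were not called in KO cells, and at day 5 with FLAG 17.9% (16.6 to 19.2). The KO MEF list is shorter than the WT list, with 4113 against 6954 peaks. Nanog's WT MEF peak was in the third score quartile, in which 79.6% (77.6 to 81.4) of 1739 peaks had no KO MEF overlap. Slc2a3, from the same quartile, had a peak in both genotypes. Nanog's day 5 peak was in the lowest-scoring quartile of the WT FLAG list. In that quartile 75.5% (73.3 to 77.5) of 1607 peaks had no KO overlap at day 5 with FLAG. At day 5 with FLAG Slc2a3 was called in KO and not in WT cells. In the quartile of its KO peak, 38.5% (36.0 to 41.1) of 1411 peaks had no WT overlap at day 5 with FLAG.

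In both MEF lists the highest-scoring H3K27me3 peak of the region lay at no start site but between Dppa3 and Nanog, outside any protein-coding gene. In WT MEFs it had a score of 24.18 and rank 1888 of 6954. In KO MEFs it had a score of 10.45 and rank 2128 of 4113, and its interval shared 948 bp with the WT peak. Its centre lay 43.7 kb before the first Nanog start and 37.4 kb past the Dppa3 start. None of the 8 lists from day 5 and day 10 held a peak there. Of all 6954 WT MEF peaks, 3.75% (261) likewise overlapped a KO MEF peak and no peak of day 5 or day 10, a combination chosen after the values were seen. In the same score quartile of the WT MEF list, 31.6% (29.4 to 33.8) of 1738 peaks were absent from the day 5 FLAG list and 53.3% (51.0 to 55.7) from the day 10 FLAG list. The KO MEF peak was in the third quartile, where 51.3% (48.2 to 54.3) of 1028 peaks were absent at day 5 with FLAG. This element was thus called in both genotypes before OSKM and in neither after it, whichever vector was present.

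The WT MEF list held a further peak past the Nanog gene, at chr6:122715719-122716718 (score 8.45, rank 4955 of 6954), between Nanog and Slc2a3. With it the WT MEF list had 4 peaks in the region, a number that 4.85% of 10806 stretches of the same length along the autosomes and X reached or passed. KO MEFs had 2 peaks, at the element before Nanog and at Slc2a3, and the day 5 lists with FLAG had 1 each. The day 5 lists with JMJD3 had 0 in either genotype. Apobec1, a neighbour of Gdf3 that encodes a cytidine deaminase editing RNA, was called in 0 of 10 lists.

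KLF4, one of the reprogramming factors and a zinc finger protein, was mapped at day 5 in WT cells. The lists give intervals without a score, so peaks were ranked by width. With FLAG, 3 peaks fell in the region, a number that 13.1% of stretches of this length reached or passed. They lay in the intron of Dppa3 (chr6:122627603-122627837, 235 bp, 1.31 kb past the start), at the distal site (174 bp, 44.4 kb before Nanog) and in an intron of Slc2a3 (chr6:122740074-122740389, 316 bp, 2.51 kb past the start). With JMJD3, 4 peaks fell in the region (11.9% of stretches). They lay at the distal site (255 bp), 41.5 kb before Nanog (chr6:122665944-122666126, 183 bp), 4.86 kb before Nanog (chr6:122702542-122702724, 183 bp) and in the Slc2a3 intron (chr6:122740097-122740305, 209 bp). The counts of 3 and 4 depended on the region and the peaks taken, being 4 with FLAG and 8 with JMJD3 with 100 kb on each side or with the Slc2a3 gene record, and 1 and 0 in the wider 50% of each list.

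Peaks of both lists met within 400 bp, the distance used in the study, at the distal site and the Slc2a3 intron. The Dppa3 intron peak was listed only with FLAG, and both further peaks before Nanog only with JMJD3. Among all peaks, 84.8% of those with FLAG had a partner in the JMJD3 list and 62.6% of those with JMJD3 in the FLAG list. The 2 peaks before Nanog that were listed only with JMJD3 had the minimum width of that list, as did 5.34% of its 14391 peaks, and the distal peak with FLAG had the minimum width of its own list (6.64% of 10655). With the JMJD3 list reduced by width to the length of the shorter FLAG list, it held 1 peak in the region, the one at the distal site.

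JMJD3 was mapped as single positions, without width or score. With OSKM, 7 positions fell in the region, a number that 1.2% of stretches reached or passed. With 20 kb on each side in place of 50 kb the number was 4, the 3 positions farthest before the Slc2a3 start being left out. The position in the intron of Gdf3, at 122608633, lay 1.45 kb past its start, and a further position fell in the distal site, 9 bp from the centre of the KLF4 peak with FLAG. The position at 122703121 lay 4.37 kb before Nanog and 488 bp from the centre of the nearest KLF4 peak with JMJD3, so that it was merged with that peak at a distance of 1000 bp and not at 400 bp. The remaining 4 positions, at 122758900, 122765223, 122766457 and 122770429, lay 16.2 to 27.7 kb before the Slc2a3 start. They fall outside the transcripts used here and inside the longer gene record of Slc2a3, which ends at 122801640. JMJD3 was thus listed inside Gdf3, before Nanog and before Slc2a3.

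With OSlowKM, 0 positions fell in the region, as in 82.2% of all stretches. The nearest OSlowKM position to any of the 7 was 1140 to 1300 kb away. The OSlowKM list holds 2284 positions and the OSKM list 14067, of which 12.9% had an OSlowKM position within 400 bp. A difference in read depth between these 2 libraries was not tested.

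KLF4 and JMJD3 within 5 kb of a start site were then read in each list apart. KLF4 with FLAG was near Dppa3 and Slc2a3 (27.9% of all genes had such a peak). KLF4 with JMJD3 was near Nanog and Slc2a3 (37.0%), and JMJD3 with OSKM near Gdf3 and Nanog (21.0%). JMJD3 with OSlowKM was near 0 members (3.66%). Within 50 kb of the gene, Nanog had 2 KLF4 peaks with FLAG, 4 with JMJD3 and 3 JMJD3 positions. Slc2a3 had 1, 2 and 5, Dppa3 had 2, 2 and 2, and Gdf3 had 1, 0 and 1, in the same order. Gdf3 was thus the member with the fewest and lacked a KLF4 peak with JMJD3 in this range. Among all genes, 59.4% had a KLF4 peak with FLAG within 50 kb, 67.0% one with JMJD3, 55.3% a JMJD3 position with OSKM and 13.9% one with OSlowKM.

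Binding and mark were then set side by side. The KLF4 and JMJD3 positions of the region merged into 11 sites, and the distal site between Dppa3 and Nanog was the only one of them in which KLF4 with FLAG, KLF4 with JMJD3 and JMJD3 with OSKM met. Among all JMJD3 positions with OSKM, 32.7% had a KLF4 peak with JMJD3 within 400 bp. The WT MEF H3K27me3 interval of the element began 130 bp past the KLF4 peak with FLAG, 64 bp past that with JMJD3 and 208 bp past the JMJD3 position. For the KO MEF interval the gaps were 182, 116 and 260 bp. Mark and binding were thus neighbours and did not overlap, and they came from different states, MEFs for the mark and day 5 cells for the factors. Of all WT MEF peaks, 0.92% (64 of 6954) had both KLF4 lists and JMJD3 with OSKM within 1 kb, again a combination chosen after the values were seen. At the Nanog start no KLF4 peak or JMJD3 position overlapped the mark, the nearest lying 4.37 kb before the first start site.

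**Figure D4:**
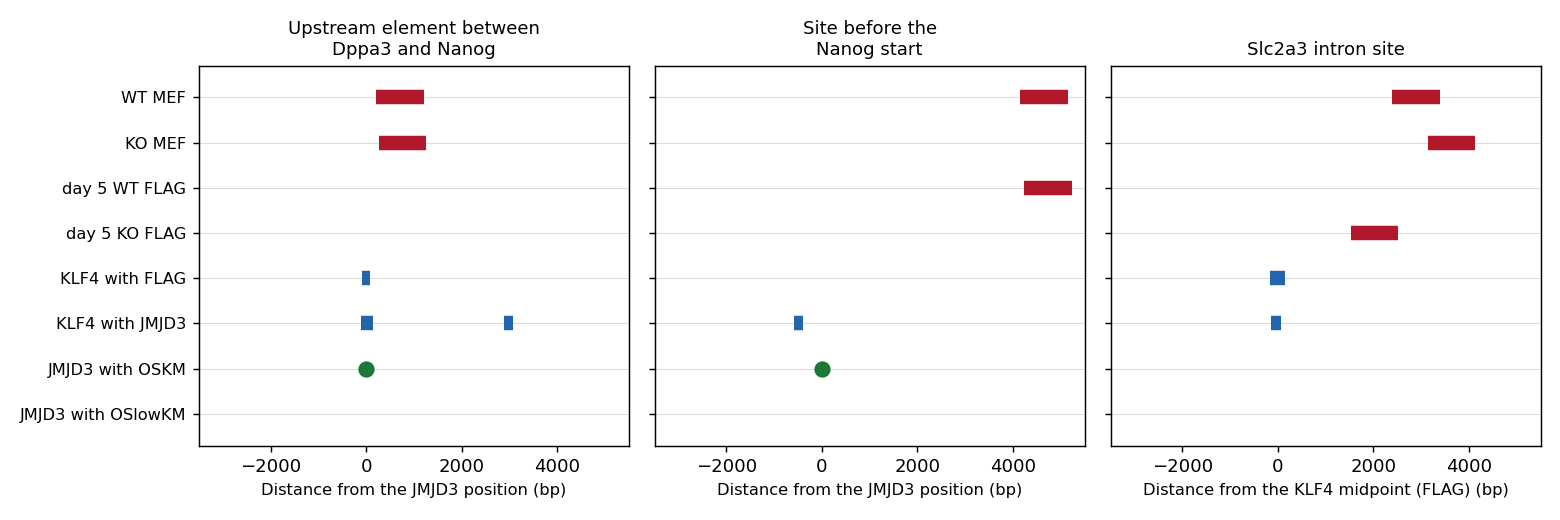
Intervals at the distal element between Dppa3 and Nanog, before the Nanog start and in the Slc2a3 intron, against the distance in bp from the JMJD3 position (left and middle) or from the centre of the KLF4 peak with FLAG (right). Red bars are H3K27me3 peaks, blue bars KLF4 peaks and green circles JMJD3 positions, with 1 row per list. At the distal element the H3K27me3 bars of both MEF lists begin 208 and 260 bp past the JMJD3 position.

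The sequences printed above were read for motifs. The 250 bases before the first Nanog start hold the OCT-SOX composite, at 122707414, and a KLF string, GGGCGTGG, at 122707479, and a further KLF string, GGGGGTGG, begins past the start site at 122707513. The composite is the known OCT4 and SOX2 element of the Nanog promoter. Of 32851 promoters from RefSeq (GRCm38.p6, 250 bases before to 50 after the start), 17.6% held a KLF string and 2 (0.00609%) held the composite, both of them entries of Nanog. The string was written in the form of the Nanog element, so its presence there follows in part from that choice. The Dppa3 intron peak held GGGCGTGG at 122627675. Neither window before Nanog, at the KLF4 peak or at the JMJD3 position, held any of the 5 strings.

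Among the other windows reported here, the JMJD3 window at 122766457 held a KLF string and that at 122758900 an AP-1 string, TGACTCA. The windows of the Slc2a3 intron, the Gdf3 intron, the KLF4 peak 41.5 kb before Nanog and the JMJD3 positions at 122765223 and 122770429 held none. Over all windows of 200 bp, a KLF string was present in 35.5% for KLF4 with FLAG, 33.6% for KLF4 with JMJD3 and 14.6% for JMJD3 with OSKM, and an AP-1 string in 11.4% of the last. A match describes these letters only and is not a site of binding.

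Nanog was finally set beside 20 other pluripotency genes. Of these, 14 were called in WT MEFs, 11 in KO MEFs, 12 in day 5 WT cells with FLAG and 10 with JMJD3. In day 5 KO cells 13 were called with either vector, and at day 10 between 8 and 10. Between 8.26% and 14.7% of all genes were called in these 10 lists. The genes whose calls matched Nanog's in the most lists, 8 of 10, were Dppa2, Dppa4, Dppa5a, Fbxo15, Tcl1, Zfp42, Tdh and Tfcp2l1. The first 6 matched because they were called in no list. Tdh, which encodes a threonine dehydrogenase used by embryonic stem cells, was called in WT MEFs and in day 5 WT cells with FLAG, as Nanog was, and also in day 5 KO cells with both vectors. Tfcp2l1, a transcription factor of naive pluripotency, was called in WT MEFs and in day 5 KO cells with JMJD3. At the opposite end, Sox2, Klf4, Esrrb, Lin28a, Utf1, Nr5a2 and Prdm14 were called in all 10 lists.

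As a check of the cell type labels, 8 fibroblast genes and 8 genes of other lineages were counted. In WT MEFs 1 fibroblast gene (Thy1) and 7 genes of other lineages were called, and in KO MEFs 0 and 6. In the day 10 KO lists 3 fibroblast genes were called with FLAG and 5 with JMJD3, against 0 and 1 in WT cells. The day 5 lists held 0 to 2 fibroblast genes, and over all 10 lists 4 to 7 genes of other lineages were called, where 8.26% to 14.7% of all genes were called. A call of the mark is not a level of expression, and these counts were not related to the calls at the cluster.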

How the data were processed

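Peak lists of 14 of the 20 samples were used; the 4 input and 2 H3K27ac samples were not used here. The authors aligned reads to mm10 (Bowtie2 2.2.0, per the submitters' processing notes) and called H3K27me3 peaks with DFilter and KLF4 and JMJD3 peaks with MACS2, 1 list per library. The deposited H3K27me3 lists give 1000 bp intervals and a score of the authors' peak caller; the other deposited values used are interval positions. Drosophila chromatin was added to normalise H3K27me3 reads, and since its use in peak calling was not stated, a call or score is not an amount of mark. Read depth is not part of the lists, and the H3K27me3 read numbers and levels described for the paper's supplement were not used. The precision of a call is therefore unknown here, and a longer list can hold more calls.

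Genes and start sites were those of GENCODE M21 basic transcripts. Peaks were called at a gene within 5 kb of a start site, and positions were merged within 400 bp. Shares carry 95% Wilson intervals, which cover counting error only. Stretches of the region's length with more than 50% unknown bases were left out. Of the members, Nanog had an entry among the RefSeq promoters. The tools were samtools 1.23.1, pysam 0.24.0, matplotlib 3.10.9, scipy 1.17.1 and numpy 2.4.6 under Python 3.11.15, and the overlap and motif counts were tested on simulated lists. Groups came from the sample labels. Peaks in 1 neighbouring gene and 1 sequence are not reported here. The members, gene lists and score quartiles were chosen with earlier results of these data known. Named were the 4 members, other genes of the region with a peak or position, and the pluripotency genes whose calls matched Nanog's in the most lists. Alternatives covered distance, flank, score, width, list length, start sites, merging distance and window size.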

Additional observations from a re-analysis of the deposited data

How the results depend on the processing

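Of 64 alternative values for reported counts above 0, 37 were within 1.5 times the reported count. The member calls (5) were the same at distances of 1, 2, 10 and 20 kb. They fell to 0 with a score of at least 20, with the better-scoring 50% and with all lists reduced to the shortest length of 3045, and the number of members losing a call with JMJD3 at day 5 then went from 1 to 0 in each genotype. With the most upstream start of each gene record, 2 calls were left, both at Nanog, and no member lost a call in KO cells (0). H3K27me3 peaks across the region went from 10 to 1 with a score of at least 20 and to 4 at the shortest length. KLF4 peaks with FLAG went from 3 to 1 in the wider 50%, and those with JMJD3 from 4 to 0 in the wider 50%, to 1 at equal list length, to 8 with 100 kb on each side and to 8 with the Slc2a3 gene record, an alternative chosen after seeing the data. JMJD3 positions with OSKM went from 7 to 4 with 20 kb on each side. Sites shared by KLF4 with JMJD3 and JMJD3 with OSKM went from 1 to 2 when midpoints within 1000 bp were merged. No paired analysis was possible because every group had 1 library and no test was made. Without read depth, an absent peak is not shown to be an absent mark.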
